A study of Homo sapiens with 12 samples.

Results

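Regions open only in KYSE510 are stretches of the genome that gave a strong ATAC-seq peak in every KYSE510 library and no peak of similar height in any KYSE150 library. Peak height is the largest pileup of sequenced fragments at 1 position of a peak, as the authors' lists give it. Peaks with a height of at least 3 in any of the 12 libraries were merged on chromosomes 1 to 22 where they overlapped by at least 1 bp, which gave 283481 regions. The members were chosen by measured heights: at least 5 in each of the 6 KYSE510 libraries and below 3 in all 6 KYSE150 libraries. There were 5135 such regions, 1.81% of all merged regions and 16.4% of the 31340 regions that were strong (height of at least 5) in all 6 KYSE510 libraries. The other 26205 strong regions also had a KYSE150 peak with a height of at least 3 and are called shared regions.

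KYSE150 and KYSE510 are established human oesophageal squamous carcinoma cell lines, grown in RPMI-1640 medium with fetal bovine serum. Each line was profiled as control cells and after silencing of HCP5, a long non-coding RNA, with 3 libraries in each of the 4 groups. How HCP5 was silenced and what the control cells received are not given in the sources used here. The submitters' title names apoptosis, c-Myc transcription and the protein UTP3 beside HCP5.

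In ATAC-seq a transposase inserts sequencing adapters into DNA that is not tightly packed around nucleosomes, so peaks mark open promoters and enhancers. Promoters lie at gene starts and tend to be open in many cell types, whereas enhancers lie within genes or between them and are more often open in some cell types than in others. Squamous epithelium depends on transcription factors such as TP63, SOX2 and members of the AP-2 and KLF families, and squamous carcinomas of the oesophagus often carry extra copies of parts of the genome, among them those around MYC and CCND1.

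The strongest members that covered the start of a protein-coding gene are shown first, with their sequences. They are examples of promoters open in KYSE510 and below the height limit in KYSE150. They were picked by height and do not stand for all starts inside members. Each sequence runs 5′ to 3′ along the gene's strand, from 250 bases before the start to 50 after it, and was taken from RefSeq (GRCh38.p14). Capitals mark matches to GGGCGG or, on the opposite strand, CCGCCC, the letters bound by SP and KLF factors, which are common in CpG-rich promoters. The AP-1 letters TGANTCA were searched as well and have no match in these 6 windows. The windows were DHCR7 (chr11:71448344-71448643, minus strand), SOD2 (chr6:159762232-159762531, minus strand), ZNF761 (chr19:53431734-53432033, plus strand), HS3ST3B1 (chr17:14300831-14301130, plus strand), LMCD1 (chr3:8501573-8501872, plus strand) and LRIG1 (chr3:66500973-66501272, minus strand).
DHCR7: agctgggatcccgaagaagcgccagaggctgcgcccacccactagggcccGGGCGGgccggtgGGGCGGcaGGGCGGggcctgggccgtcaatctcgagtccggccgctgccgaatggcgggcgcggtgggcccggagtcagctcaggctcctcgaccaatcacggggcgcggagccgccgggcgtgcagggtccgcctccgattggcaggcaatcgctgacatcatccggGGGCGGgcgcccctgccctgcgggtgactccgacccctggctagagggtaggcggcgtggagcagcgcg
SOD2: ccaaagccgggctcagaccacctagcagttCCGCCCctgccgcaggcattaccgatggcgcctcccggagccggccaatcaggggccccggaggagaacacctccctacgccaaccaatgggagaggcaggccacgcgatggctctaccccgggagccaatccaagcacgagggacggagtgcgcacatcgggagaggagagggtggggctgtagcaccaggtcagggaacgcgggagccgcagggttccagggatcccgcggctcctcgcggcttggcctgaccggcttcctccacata
ZNF761: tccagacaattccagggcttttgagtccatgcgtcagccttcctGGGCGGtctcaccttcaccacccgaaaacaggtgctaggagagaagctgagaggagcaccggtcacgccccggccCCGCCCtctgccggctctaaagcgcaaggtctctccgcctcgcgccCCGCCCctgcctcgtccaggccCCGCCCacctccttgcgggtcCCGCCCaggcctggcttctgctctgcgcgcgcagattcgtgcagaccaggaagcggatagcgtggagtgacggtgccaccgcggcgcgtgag
HS3ST3B1: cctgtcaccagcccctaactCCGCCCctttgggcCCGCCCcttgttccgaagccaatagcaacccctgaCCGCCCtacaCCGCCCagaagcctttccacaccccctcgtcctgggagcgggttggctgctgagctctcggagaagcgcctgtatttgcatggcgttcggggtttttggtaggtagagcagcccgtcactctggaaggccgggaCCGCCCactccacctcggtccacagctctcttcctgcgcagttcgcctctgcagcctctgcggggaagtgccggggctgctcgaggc
LMCD1: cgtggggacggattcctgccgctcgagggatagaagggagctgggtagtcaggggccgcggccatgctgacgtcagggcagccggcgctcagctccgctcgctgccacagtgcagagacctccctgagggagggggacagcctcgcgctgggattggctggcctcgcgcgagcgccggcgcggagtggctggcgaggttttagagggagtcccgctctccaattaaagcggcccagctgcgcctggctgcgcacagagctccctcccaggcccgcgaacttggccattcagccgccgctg
LRIG1: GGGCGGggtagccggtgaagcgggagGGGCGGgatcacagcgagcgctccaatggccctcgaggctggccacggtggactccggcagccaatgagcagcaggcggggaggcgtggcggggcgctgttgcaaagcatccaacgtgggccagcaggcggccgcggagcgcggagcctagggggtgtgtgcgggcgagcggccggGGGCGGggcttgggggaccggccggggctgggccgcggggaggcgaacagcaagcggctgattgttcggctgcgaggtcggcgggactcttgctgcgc

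All 6 windows were rich in G and C, from 65.3% for HS3ST3B1 to 75% for DHCR7. ZNF761 and HS3ST3B1 held 5 SP/KLF matches each, DHCR7 held 4, LRIG1 held 3, SOD2 held 1 and LMCD1 held none. The window of LRIG1 held 35 CpG dinucleotides and that of DHCR7 36.

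Over all members, the median height over the 6 KYSE510 libraries was 10.5, with quartiles of 8 and 14.5 and a highest value of 586.5. Shared regions were higher, with a median of 13.5 and quartiles of 10 and 20.5. Members were also somewhat shorter, with a median length of 648 bp against 735 bp. Together they covered 3459 kb. The spread between the 6 libraries at 1 region, as the coefficient of variation of height, had a median of 26.0% in members and 24.3% in shared regions.

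The 6 KYSE510 libraries gave alike levels at the members. Median heights were 11, 11 and 10 in the control libraries and 11, 11 and 11 in the silenced libraries. The median fold enrichment lay between 6.79 (control 3) and 7.26 (control 1). Fold enrichment is the authors' ratio of peak height to local background, read here with 1 added to both. Where the background is far below 1, this ratio follows height closely. Within each library the members sat near the middle of the regions with a height of at least 3 in all 6 libraries, at median percentiles of 50.9 to 53.7, and shared regions at 64.6 to 65.9.

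Weak KYSE150 peaks were common at the members. The highest KYSE150 peak had a height of 1 at 2361 members (46.0%) and of 2 at 1650 (32.1%), which the rule allows, and 1124 members (21.9%) had no KYSE150 peak of any height. In a single KYSE150 library, 33.1 to 37.0% of members had such a weak peak. At 133 members all 6 KYSE150 libraries had one. Of the 2957 members with a median height of at least 10, 703 had no KYSE150 peak at all. Weak peaks are also found where neither line has a stronger one. In flanks of the same length 10 kb to either side of the members, a measure chosen after seeing the data, 8731 touched no merged region, and 13.9 to 15.8% of these had a weak peak in a single KYSE150 library. In any of the 6 libraries, 78.1% of members and 53.8% of such flanks had one, and the highest weak peak had a height of 2 in 32.1% and 6.01%. Only part of the weak peaks at members is thus above the level of the flanks, and the name of the set refers to the heights of the rule.

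**Figure D1:**
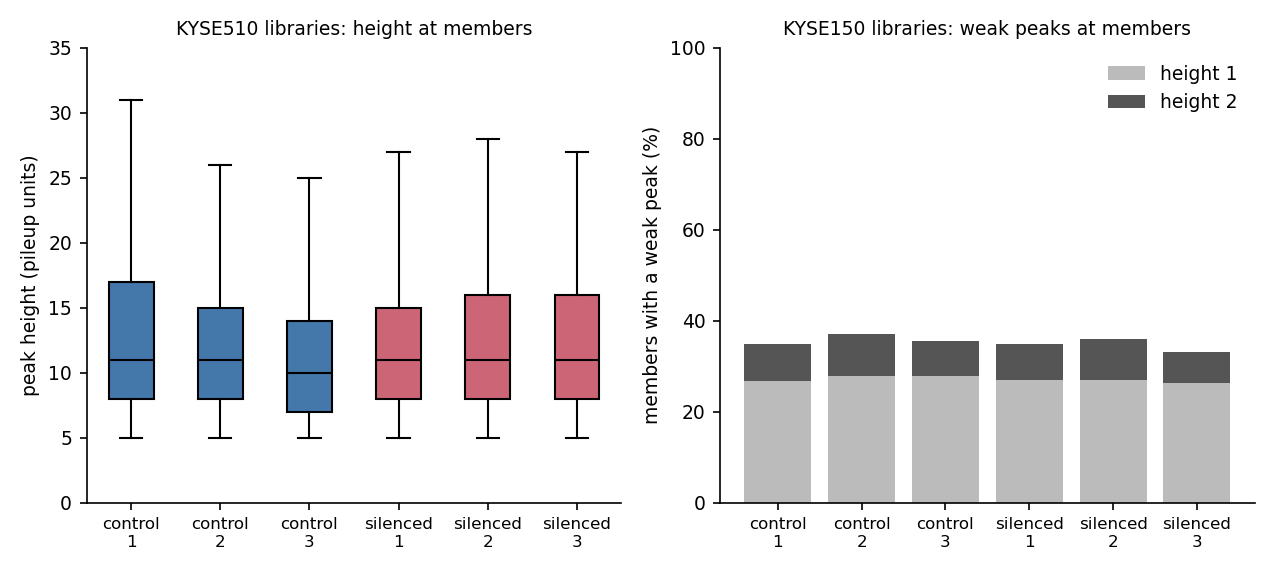
Left, peak height (pileup units) of the 5135 members in each KYSE510 library; boxes give the quartiles and the median, and whiskers the 5th and 95th percentiles. Right, the percent of members with a peak of height 1 or 2 in each KYSE150 library, 33.1 to 37.0% in all. The KYSE510 medians are 10 or 11 in all 6 libraries.

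The lines differed in background as well as in peaks. The peak lists carry no read totals, and depth stays unknown. The background height solved from height and fold enrichment lay between 0.083 and 0.108 in KYSE150 and between 0.180 and 0.217 in KYSE510. At 17736 shared regions with peaks in all 12 libraries, KYSE510 heights were a median of 1.38 times those of KYSE150, with quartiles of 1.04 and 1.90. KYSE510 libraries had 101552 to 119939 peaks with a height of at least 3 and a lowest listed height of 2, and KYSE150 libraries had 51492 to 61585 such peaks and a lowest listed height of 1. The reverse rule, strong in KYSE150 and below 3 in KYSE510, kept 378 regions. A difference between the lines and a difference in sequencing or peak calling between their libraries cannot be told apart, and 6 libraries of 1 cell line are not 6 lines.

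KYSE150 peaks were also found around the members. Within 25 kb of each member, at least 9 KYSE150 peaks of any height were found, with a median of 66. Peaks of all KYSE150 libraries were counted together, so the same site could be counted again for each library. Around shared regions the median was 60. Most KYSE150 peaks are weak. The libraries listed 526014 to 603958 peaks of any height on chromosomes 1 to 22, and 51492 to 61585 with a height of at least 3. The same count over the genome as a whole was not made.

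The rule was also applied with 1 library left out, which gave larger sets of 5307 to 5813 regions. Of regions chosen on the other 11 libraries, 88.7% (KYSE510 control 3) to 93.4% (KYSE510 silenced 2 and 3) reached the height of 5 in the KYSE510 library left out. These shares describe how alike the libraries of a line are and are no independent check of the set. Between 93.3 and 96.8% stayed below 3 in the KYSE150 library left out. Near the limits, 424 members had a lowest KYSE510 height of 5 and a highest KYSE150 height of 2. Among these, a region nearest NECTIN3 had heights of 18, 13 and 5 in control and 15, 22 and 23 in silenced libraries. A further 1104 regions failed only by a height of 4 in 1 KYSE510 library, such as a region within SYNE2 with 4, 17 and 8 in control and 14, 19 and 15 in silenced libraries. Another 1056 failed only by a height of 3 in 1 KYSE150 library, such as a region within RPGRIP1 with 108, 100 and 93 in control and 91, 87 and 81 in silenced KYSE510 libraries.

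Members lay far from gene starts more often than shared regions did. Starts were taken from a RefSeq table that is not complete, and regions of 1 chromosome without starts in it were left out of these shares, which leaves 4724 members. A start lay inside 7.79% of members and 26.1% of shared regions. Within 1 kb the shares were 10.7% and 29.4%, and within 50 kb 64.6% and 77.5%. The median distance was 30.7 kb for members and 13.3 kb for shared regions. All merged regions, which are mostly weak, had 7.79% within 1 kb and a median distance of 29.4 kb. The 354 KYSE150-only regions in these counts also had few starts, with 13.8% within 1 kb. The body of a protein-coding gene held 44.0% of members, 49.7% of shared regions and 59.0% of KYSE150-only regions. These sets come from the same libraries, and a difference between them carries no test.

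**Figure D2:**
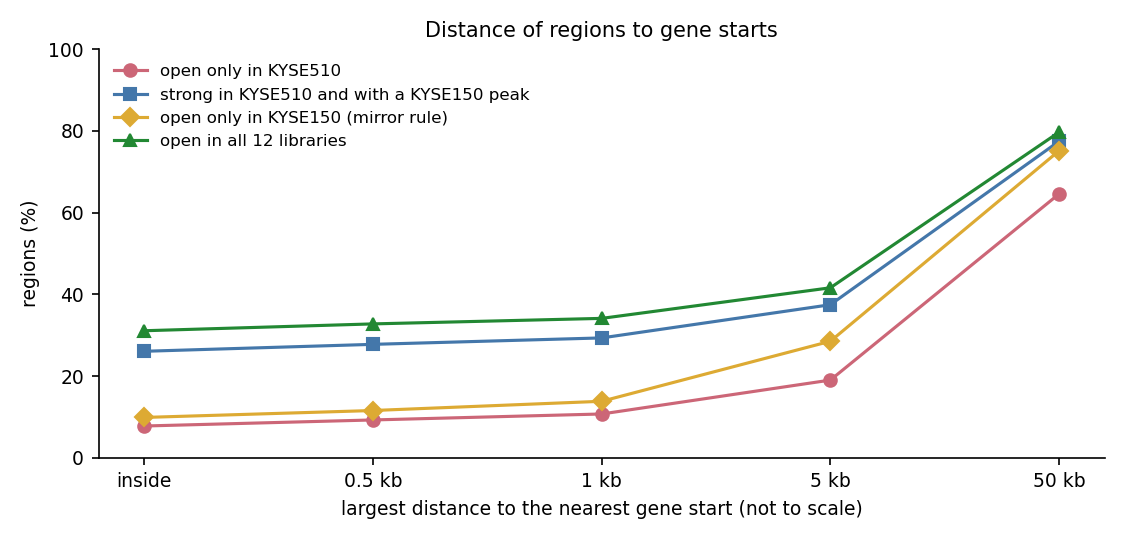
Percent of regions (vertical axis) with a gene start inside them or within the distance on the horizontal axis, for 4 sets of regions. The KYSE510-only regions lie lowest at every distance, at 10.7% within 1 kb, and regions open in all 12 libraries lie highest, at 34.1%.

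The promoters inside members were of mixed make-up. The table had 443 starts of 406 genes inside members, of which 71.6% belonged to protein-coding genes, against 81.2% of the 9548 starts inside shared regions. Median GC content was 64.0% in members, 65.3% in shared regions and 58.7% over all 33725 starts in the table. The median number of CpG dinucleotides was 22, 26 and 14 in the same order.

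Short motifs in these windows of 300 bases, searched on both strands, are given as shares only. The SP/KLF letters GGGCGG were in 58.7% of starts inside members, 72.3% inside shared regions and 45.0% of all starts. ETS (GGAAGT) was in 20.8, 29.3 and 22.8%, and the E-box CACGTG, bound by MYC among others, in 6.55, 10.1 and 7.18%. Starts inside members had the highest share for AP-1 (TGANTCA), with 9.71, 6.04 and 7.67%, and for FOX (TGTTTAC), with 5.87, 2.2 and 3.45%. AP-1 factors act in most epithelial cells, and the FOX letters were found in 26 starts inside members. CEBP (TTGCNNAA) was in 9.26, 7.05 and 10.5%, and AGATAA, read by the GATA factors, in 6.32, 4.03 and 10.4%. NRF2 (TGACNNNGC) was in 12.2, 16.0 and 13.3%. TEAD (GGAATG) was in 10.8, 11.1 and 14.04%, RUNX (TGTGGT) in 9.26, 9.46 and 13.1%, and SOX (CATTGT) in 6.32, 5.88 and 10.8%. The looser E-box CANNTG, which takes in the E-box above, was in 69.1, 59.6 and 68.6%, and CTCF (CCCTC) in 73.8, 79.9 and 71.1%. POU (ATGCAAAT) was in 1.58, 1.17 and 1.75%, HNF4 (CAAAGTCCA) in 0.226, 0.178 and 0.397%, and the IRF motif in 2.03, 2.47 and 3.57%. No start inside a member held the HNF1 or the p53-family motif, which all starts held in 0.00593 and 0.374%.

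By height, the member at the DHCR7 start was by far the highest over a gene start. Its median fold enrichment over the KYSE510 libraries was 13.8. That was below ZNF761 (19.6), SOD2 (19.2), LRIG1 (17.5) and HS3ST3B1 (16.4) and above LMCD1 (12.1). DHCR7 encodes the enzyme of the last step of cholesterol synthesis. The region (chr11:71448287-71448959) had heights of 292, 268 and 261 in control and 276, 274 and 317 in silenced KYSE510 libraries, with a fold enrichment of 13.3 to 14.1, and no KYSE150 peak of any height. The groups overlapped. The neighbouring region at the start of NADSYN1, the glutamine-dependent NAD synthetase, had heights of 145 to 209 in KYSE510 and 8 to 17 in KYSE150. It was thus open in both lines and higher in KYSE510. Another region close by (chr11:71447323-71447641) had heights of 41 to 81 in KYSE510. In KYSE150 it had a peak in 2 libraries, of at most 3. The higher level in KYSE510 was thus not confined to the DHCR7 start.

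SOD2 encodes the manganese superoxide dismutase of mitochondria, and its start lies close to ACAT2, which encodes an enzyme that makes acetoacetyl-CoA. This member (chr6:159761869-159762612) had heights of 71, 66 and 65 in control and 64, 83 and 78 in silenced KYSE510 libraries, and no KYSE150 peak. Close by, a region without a KYSE510 peak had heights of 4 to 10 in all 6 KYSE150 libraries.

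The ZNF761 start, of a zinc finger gene, had heights of 70, 58 and 44 in control and 61, 49 and 63 in silenced libraries. HS3ST3B1 encodes a heparan sulfate sulfotransferase, and its start had 79, 54 and 51 in control and 42, 64 and 54 in silenced libraries. At LMCD1, a LIM domain protein, heights were 58, 42 and 46 in control and 45, 51 and 45 in silenced libraries. LRIG1 is a brake on receptor tyrosine kinases of the ERBB family, and its start had 48, 50 and 33 in control and 42, 39 and 50 in silenced libraries. All 4 starts were alike in level, and their groups overlapped. LMCD1 had no KYSE150 peak, and the other 3 had peaks of height 1 in 1 or 2 KYSE150 libraries.

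Lower in the order came L3MBTL1, a reader of methylated histones, with a median height of 41.5, TTC23L with 41 and FAM83E with 40. A member nearest RAI14 with a median of 55 covered the start of a non-coding gene.

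The highest member of all lay over a copy of mitochondrial DNA. It lies within PCBD2 on chromosome 5 (134925116 to 134925402), over MTND5P11, a pseudogene derived from the mitochondrial genome. Heights were 605, 591 and 609 in control and 573, 582 and 567 in silenced KYSE510 libraries, with no KYSE150 peak. Control libraries were all higher than silenced ones by height, but fold enrichment overlapped, at 27.3 ± 0.604 and 27.2 ± 0.491 (mean ± SD, n = 3 each).

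Its neighbours in the same stretch did not all go the same way. A member over MTND6P4 had heights of 236 to 255 in KYSE510 and none in KYSE150. The region over MTCYBP18 had heights of 57 to 65 in KYSE150 and none in KYSE510, and that over MTND4P12 had 523 to 548 in KYSE150 and 111 to 128 in KYSE510. Fragments of mitochondrial DNA and of these nuclear copies cannot be told apart in peak lists.

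**Figure D3:**
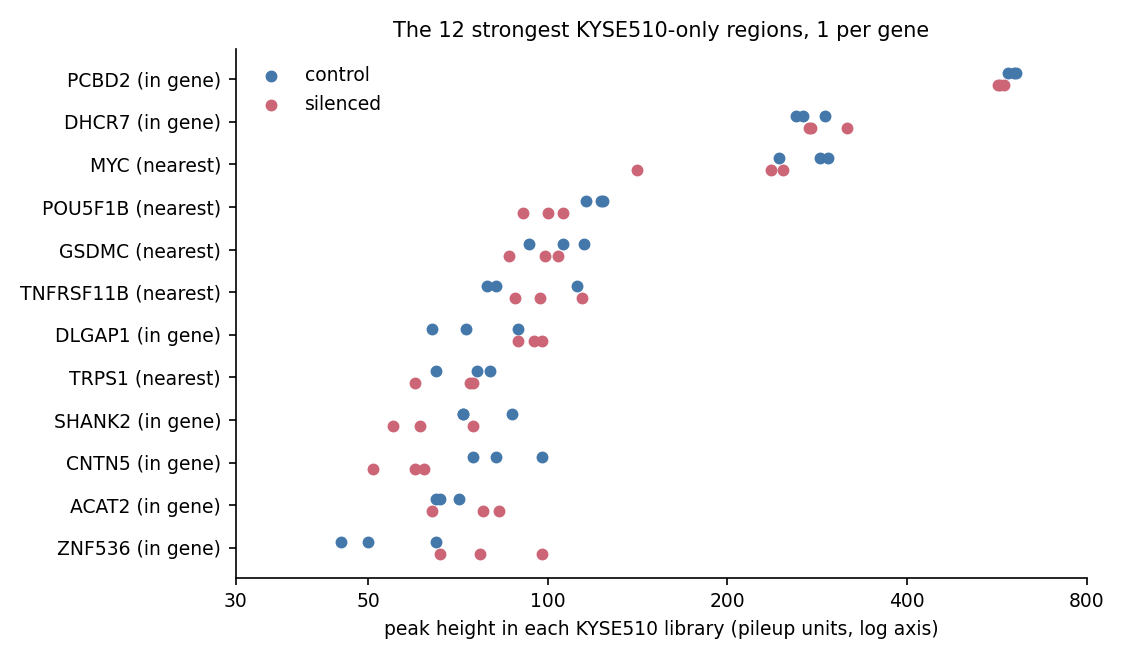
Peak height (pileup units, log axis) in each of the 6 KYSE510 libraries for the 12 members with the highest median height, 1 per host or nearest protein-coding gene. Blue points are control libraries and red points silenced libraries; heights run from 45 at ZNF536 to 609 at PCBD2.

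Outside starts, the strongest members fell at a few places. TNFRSF11B, which encodes the decoy receptor osteoprotegerin, was the gene nearest to a member with 82, 112 and 79 in control and 88, 114 and 97 in silenced libraries. A member within DLGAP1, a postsynaptic scaffold gene, had 89, 64 and 73 in control and 98, 89 and 95 in silenced libraries. One within SHANK2, another scaffold gene, had 72, 72 and 87 in control and 61, 75 and 55 in silenced libraries.

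The member within CNTN5, a contactin of the nervous system, had 98, 75 and 82 in control and 60, 51 and 62 in silenced libraries. Its groups did not overlap, but limma's test on ranks gave a change of -0.46 ± 0.318 (SE) and an adjusted p of 0.797. In ZNF536, a zinc finger repressor, the member had 45, 65 and 50 in control and 66, 98 and 77 in silenced libraries (adjusted p = 0.753 by limma). Both were thus within what the test allows for the spread between libraries.

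By chromosome, the share of strong KYSE510 regions that were KYSE510-only ran from 7.73% on chromosome 17 (72 of 932) to 27.4% on chromosome 18 (174 of 636). Chromosome 8 came next with 23.2% (411 of 1771), then 14 with 21.0%, 4 with 20.6% and 6 with 19.2%. Chromosome 1 had the most members, 637, and a share of 17.2%. Chromosomes 10 and 20 had 10.6% and 10.3%. The number of weak KYSE150 peaks (height 1) per 1 Mb window was 0.860 times the genome median on chromosome 18, 1.02 on chromosome 8, 0.956 on 14 and 0.813 on 4, the lowest. It was 0.917 times on chromosome 17 and 0.877 on 19, where 10.9% of strong regions were members, and highest at 1.12 on chromosome 5, where 18.6% were. The part of these KYSE150 levels in the shares was not tested.

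**Figure D4:**
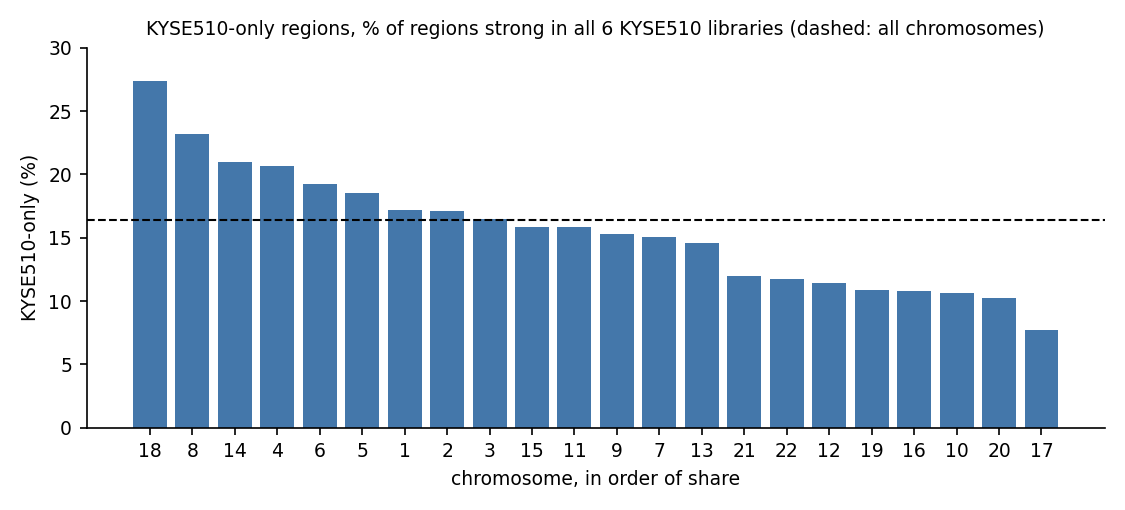
KYSE510-only regions as a percent of the regions strong in all 6 KYSE510 libraries, by chromosome in order of share. The dashed line is the share over all chromosomes, 16.4%; bars run from 27.4% on chromosome 18 to 7.73% on chromosome 17.

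Members were spread over 1889 windows of 1 Mb, and 33 windows with at least 10 members held 462 of them. The window with the most was on chromosome 8 from 128000000 to 128999999, with 35 members among 68 strong regions (51.5%). Next came the window of TRPS1 (chromosome 8 from 115000000) with 22 of 38, the window of MYC (chromosome 8 from 127000000) with 19 of 58, a window on chromosome 18 from 3000000 with 19 of 75, that of EIF3H (chromosome 8 from 116000000) with 19 of 46, and one on chromosome 18 from 35000000 with 17 of 36. TRPS1 encodes a GATA-type transcriptional repressor, and EIF3H a subunit of a translation initiation factor.

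Some of these windows had a raised KYSE510 background. Relative to each library's own background, the window from 128000000 was at 4.78 to 6.03 times across the 6 libraries, and that on chromosome 18 from 3000000 at 3.33 to 3.89 times. The window of TRPS1 was at 1.54 to 1.78 times and that of MYC at 1.38 to 2.27 times. On chromosome 11, a window with CTTN and SHANK2 (16 members) was at 4 to 5.05 times and its neighbour with CCND1 (16 members) at 2.02 to 2.82 times.

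Background at or above 2 times in all 6 libraries was found in 5 of 2742 windows, which held 100 members (1.95%) and 169 shared regions (0.645%). Members there had a median height of 18.5, against 10.5 for members elsewhere, and a median fold enrichment of 6.34 against 7.01. Members in these windows were thus higher by height and not by fold enrichment. Shared regions there had a median height of 35.5, against 13.5 elsewhere, and a median fold enrichment of 8.88 against 8.18. More copies of the DNA and more open DNA over a whole window cannot be told apart here. The other 5035 members lay outside such windows.

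Counted by gene, 3151 of 19126 protein-coding genes (16.5%) held or were nearest to at least 1 member, 2150 of them to 1 only, and 110 to at least 5. MYC, the transcription factor named in the title of the series, came first with 35 members of 88 strong regions, none of them inside the gene. DLGAP1 had 26 of 57 (20 in the gene), TRPS1 26 of 46, ZNF536 16 of 25, EIF3H 16 of 35, LRRC4C 15 of 26, GSDMC 12 of 20 and CNTN5 11 of 23. The strongest member nearest LRRC4C, a netrin-G ligand of neurons, had 25, 12 and 13 in control and 25, 22 and 22 in silenced libraries. That nearest TRPS1 had 76, 80 and 65 in control and 60, 75 and 74 in silenced libraries. That nearest EIF3H had 31, 40 and 45 in control and 60, 57 and 48 in silenced libraries. Distance to the nearest gene does not show which gene a region acts on.

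The members nearest MYC reached from 149 kb before the gene to 971 kb beyond it. The strongest, 812 kb away, had heights of 244, 286 and 295 in control and 141, 248 and 237 in silenced libraries, so silenced 1 stood low. One at 601 kb had 204, 170 and 164 in control and 190, 189 and 192 in silenced libraries, with a fold enrichment of 20.5 to 24.4 and no KYSE150 peak. The closest of the 6 strongest, at 17.2 kb, had 129, 95 and 126 in control and 118, 112 and 127 in silenced libraries, also with no KYSE150 peak. These 3 differ in height but not in the overlap of their groups.

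Farther regions nearest POU5F1B, a retrogene of the pluripotency factor gene POU5F1, and nearest GSDMC, a member of the pore-forming gasdermins, flanked this stretch. The former had 124, 123 and 116 in control and 91, 100 and 106 in silenced libraries, with no overlap by height and an adjusted p of 0.839 in limma's rank test. The latter had 106, 93 and 115 in control and 86, 99 and 104 in silenced libraries.

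Both lines were checked at the starts of marker genes found in the table. The same height limit was used for both. At shared regions with peaks in all 12 libraries, KYSE510 heights were a median of 1.38 times those of KYSE150. The counts of the lines are thus not matched for level. A peak with a height of at least 5 within 500 bases was present in all 6 KYSE510 libraries at 12 of 16 squamous starts, among them KRT5, DSG3, PAX9, KLF5, TFAP2A and SOX2, and in all 6 KYSE150 libraries at 8. The SOX2 start lies in a member, where the rule keeps KYSE150 heights below 3. The 1 listed start of TP63 had no peak of height 3 in any library, and TP63 has starts that are not analysed here. For mesenchymal genes the counts were 4 of 17 in each line, for columnar or glandular genes 5 of 15 in KYSE510 and 2 in KYSE150, for blood cells 1 of 6 and 0, and for neurons and glia 0 of 7 in both.

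Gene lists were read against the background of 16.4% of strong regions. Around the 30 squamous genes, 15 of 138 strong regions (10.9%) were members. The strongest was within PKP1, a desmosomal plaque protein, with 20, 17 and 20 in control and 19, 23 and 16 in silenced libraries. At the start of SOX2, a factor that specifies foregut squamous epithelium, heights were 17, 7 and 9 in control and 17, 6 and 15 in silenced libraries, and 1 KYSE150 library had a peak of height 2. The PKP1 region was even across libraries and the SOX2 region was not. The keratins had 3 of 42 (7.14%), nearest KRT7, KRT80 and KRT77, with median heights of 11, 10.5 and 10. HOX genes had 2 of 14 (14.3%), and the 1 gene was HOXC11.

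Mesenchymal genes had 14 of 69 (20.3%) as members. The strongest, nearest ZEB2, a repressor of epithelial genes, had 16, 19 and 19 in control and 21, 25 and 25 in silenced libraries. CDH2, the N-cadherin gene, was nearest to a member with 20, 18 and 25 in control and 21, 18 and 19 in silenced libraries. At the start of TGFBI, a matrix protein induced by TGF-beta, heights were 21, 19 and 21 in control and 17, 14 and 14 in silenced libraries. ZEB2 and TGFBI each had groups that did not overlap by height, in opposite directions, with adjusted p of 0.827 and 0.826 in limma's test.

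Columnar or glandular genes had 11 of 58 (19.0%). GATA6, a factor of gut and lung endoderm, was nearest to a member with 16, 11 and 16 in control and 19, 12 and 18 in silenced libraries. A member within CDH17, an intestinal cadherin, had 11, 8 and 8 in control and 14, 14 and 16 in silenced libraries. The latter did not overlap between groups, with an adjusted p of 0.634 by limma. Blood cell genes had 1 of 16 (6.25%), within PTPRC. Genes of neurons and glia had 10 of 45 (22.2%). Among them, a member within SNAP25, a protein of synaptic vesicle fusion, had 21, 22 and 21 in control and 16, 20 and 20 in silenced libraries.

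Among signalling lists, receptor tyrosine kinases had 35 of 187 strong regions (18.7%) as members and 18 of 47 genes with at least 1. The strongest was nearest IGF1R, the receptor of insulin-like growth factor, with 39, 41 and 29 in control and 51, 64 and 49 in silenced libraries. EPHA6, an ephrin receptor, held a member with a median of 30.5, and KDR, a receptor of vascular endothelial growth factor, was nearest to one of 28.5 without a KYSE150 peak. At IGF1R the silenced libraries were all higher, with an adjusted p of 0.768 by limma.

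The TGF-beta and BMP list had 41 of 183 (22.4%), 17 of 42 genes having at least 1. Its strongest member, nearest ID1, a target of BMP signals that blocks basic helix-loop-helix factors, had 56, 23 and 32 in control and 34, 31 and 38 in silenced libraries. A member nearest ID2, of the same family, had a median of 24.5, one nearest the ligand gene BMP4 had 19.5 and one nearest INHBB, an activin subunit, had 14. The spread was widest at ID1, where control 1 stood high.

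The Notch list had 14 of 71 (19.7%). HEY2, a Notch target and repressor, was nearest to a member with 55, 34 and 38 in control and 29, 30 and 34 in silenced libraries, and MAML2, a co-activator, held one with 18, 18 and 17 in control and 32, 26 and 25 in silenced libraries. The MAML2 groups did not overlap (limma change 0.76 ± 0.329 (SE), adjusted p = 0.659). The ligand gene DLL1 was nearest to a member with a median of 13.5.

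WNT pathway genes had 23 of 130 (17.7%). FZD10, a receptor, and WNT5A, a ligand, were nearest to members with median heights of 20 and 17.5 and no KYSE150 peak. A start of APC, the scaffold that marks beta-catenin for destruction, lay in a member with 21, 16 and 19 in control and 13, 10 and 19 in silenced libraries. Junction and adhesion genes had 60 of 326 (18.4%), led by CDH12 with a median of 27.5, LAMA4 with 25 and CLDN24 and LAMA2 with 21.5 each.

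Xenobiotic and NRF2 target genes had 13 of 73 (17.8%). EPHX1, the microsomal epoxide hydrolase, held a member with 60, 26 and 24 in control and 43, 44 and 35 in silenced libraries and no KYSE150 peak. ME1, malic enzyme, was nearest to one with 18, 17 and 18 in control and 16, 16 and 17 in silenced libraries, the most even of this group. UGDH held one with a median of 14 and CYP1B1 was nearest to one of 13. Against the background of 16.4%, the squamous, keratin, HOX and blood cell lists were below and the other lists above. Several shares were near that background, such as HOX (14.3%, 2 of 14), WNT (17.7%) and the xenobiotic list (17.8%). No list was tested. The study genes, through MYC, were highest at 39.3% (35 of 89), followed by the TGF-beta and BMP list and by neurons and glia.

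Members also overlapped 4 microRNA genes found in the RefSeq table. MIR4428, nearest RYR2, lay in a member with a median height of 21.5, and MIR4710, nearest INF2, in one of 16.5. MIR1908, nearest FADS1, lay in one of 8 and MIR4783, nearest PROC, in one of 7.5. Open DNA over a microRNA gene does not show that it is transcribed. None of the 5 mature forms listed here shares its seed (bases 2 to 8, in capitals) with another.
hsa-miR-4428: cAAGGAGAcgggaacauggagc
hsa-miR-4710: gGGUGAGGgcaggugguu
hsa-miR-1908-5p: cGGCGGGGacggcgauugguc
hsa-miR-1908-3p: cCGGCCGCcggcuccgccccg
hsa-miR-4783-5p: gGCGCGCCcagcucccgggcu

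Whether silencing of HCP5 changed these regions was compared in KYSE510 only, where they have peaks. Ranks of fold enrichment within each library were turned into normal scores over the 45131 regions with a height of at least 3 in all 6 libraries and compared by limma. No member passed an adjusted p of 0.05, and 0% of all 45131 regions did. The smallest adjusted p was 0.490 among members and 0.136 over all regions. At an unadjusted p under 0.05, 169 members (3.29%) were higher and 174 (3.39%) lower after silencing. Over all regions tested these shares were 3.97% higher and 3.42% lower. The labels do not say whether the 3 libraries of a group came from separate cultures, so p-values measure only the spread between these libraries.

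Fold enrichment did not overlap between the groups at 360 members (7.01%) with higher and 286 (5.57%) with lower silenced libraries. Over all regions the shares were 6.68% and 5.17%. The median change in score was -0.01 over members and -0.02 over all regions, and 48.8% of members and 48.6% of all regions had a positive change. From the 5th to the 95th percentile, changes of members ran from -0.72 to 0.73. The members' counts are close to those of all regions in both directions. Shared regions had 5.96% higher and 5.37% lower without overlap. At an unadjusted limma p under 0.05, 2.23% of shared regions were higher and 2.09% lower, less than in members.

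Of the 3 members with the smallest p on each side, the region nearest ARF6, a GTPase of membrane traffic, had the smallest. Its heights were 30, 25 and 17 in control and 8, 7 and 10 in silenced libraries, and its fold enrichment was 11.3 ± 1.60 and 4.83 ± 0.730 (mean ± SD, n = 3 each). The score change was -1.91 ± 0.340 (SE), with a limma p of 0.000146 and an adjusted p of 0.490. The region nearest JADE2, a subunit of a histone acetyltransferase complex, had 21, 14 and 16 in control and 11, 9 and 8 in silenced libraries. That nearest MAP1LC3B2, a gene of the autophagy marker family LC3, had 13, 13 and 14 in control and 7, 7 and 6 in silenced libraries. All 3 were lower in every silenced library.

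On the higher side, a region nearest PLEKHH2 had heights of 5, 5 and 5 in control and 10, 9 and 11 in silenced libraries, at the lower limit of the rule in all 3 control libraries. The region nearest LRRC4C, 1123 kb from that gene, had 6, 6 and 7 in control and 14, 22 and 15 in silenced libraries. The start of LCE3D, a late envelope protein of cornified squamous epithelium, lay in a region with 5, 6 and 7 in control and 12, 17 and 20 in silenced libraries. Its score change was 1.62 ± 0.371 (SE), with a limma p of 0.00108 and an adjusted p of 0.490. None of the 6 regions passed the adjusted threshold.

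**Figure D5:**
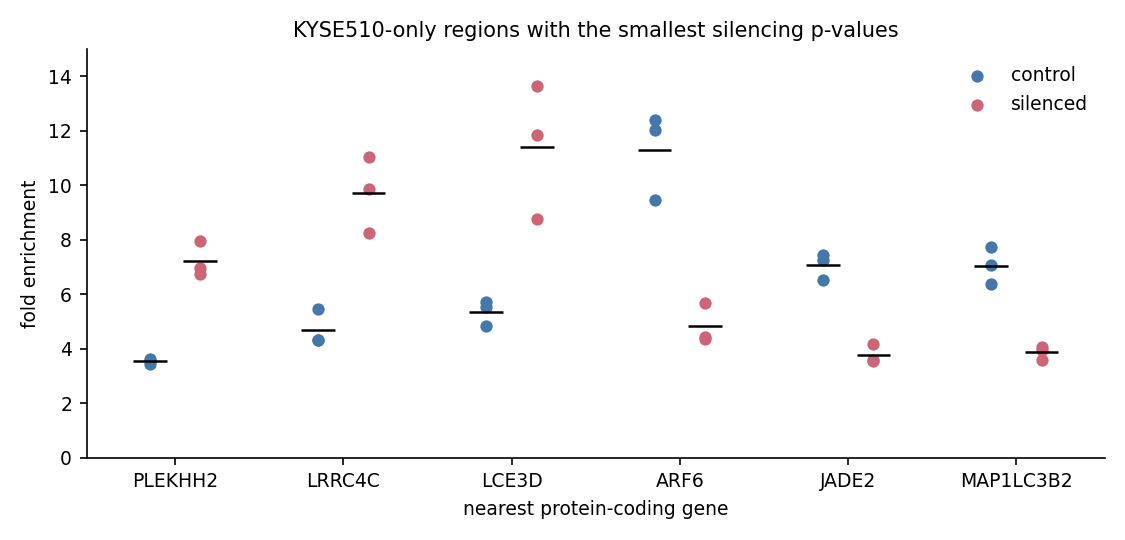
Fold enrichment in each KYSE510 library for the 3 members with the smallest unadjusted p in each direction, labelled by nearest protein-coding gene; blue points are control and red points silenced libraries, and bars are means of 3. The groups do not overlap at any of the 6 regions, which were picked for small p-values, and all have an adjusted p of 0.490.

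At the 35 members nearest MYC, 23 changes were positive, with a median of 0.16. Fold enrichment was higher in all silenced than in all control libraries at 9 of them (25.7%, against 6.68% of all regions) and lower at 2 (5.71%, against 5.17%). At an unadjusted p under 0.05, 7 were higher (20%, against 3.97% of all regions) and 3 lower (8.57%, against 3.42%), and the smallest adjusted p was 0.493 by limma. The following examples were chosen after their values were seen. A region 44.7 kb from MYC had heights of 44, 26 and 28 in control and 96, 91 and 56 in silenced libraries, and one at 81.2 kb had 12, 14 and 7 in control and 23, 29 and 24 in silenced libraries. In the other direction, a region at 699 kb had 29, 29 and 41 in control and 11, 23 and 19 in silenced libraries.

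Neighbouring members are not independent of each other, and no test was made over these 35. The background of the window from 128000000 on chromosome 8 was 5.01, 5.57 and 6.03 times in control and 4.78, 5.46 and 5.83 times in silenced libraries, so it overlapped between the groups. In the window with MYC it was 1.38, 2.18 and 2.13 times in control and 2.27, 1.62 and 1.61 times in silenced libraries.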

How the data were processed

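Open chromatin was profiled by ATAC-seq in 12 libraries of 2 cell lines. Tools named in the submitters' processing notes are Trimmomatic 0.36, Bowtie2 2.2.6, Picard 2.8.2, MACS2 2.1.1 and bedtools 2.25.0, with the build GRCh38. The authors deposited 1 peak list per library. Per the file headers, pileup is the height of a peak, a signal in whole numbers, and fold enrichment is its ratio to the local background. To solve the background, this ratio was read with 1 added to both height and background. The deposited lists also give a p-value for each peak, of at most 0.00987, and its length, at least 200 bp. The lists are per library and not pooled, per the labels. Depth is unknown, so no counting interval was computed, and a background solved from height and fold enrichment stood in for it.

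Regions were merged with Python 3.11.15 (numpy 2.4.6, pandas 2.3.3). A member belongs to the protein-coding gene that holds its centre, or else to the nearest one, from a RefSeq table (GRCh38.p14, the build of the files). The table of gene starts is incomplete and has none on chromosome 8, so shares of starts leave that chromosome out. Silencing was compared by limma 3.58.1 (R 4.3.3, lmFit and eBayes) on normal scores of ranks of fold enrichment, with Benjamini-Hochberg adjustment over all 45131 regions. The test was checked on simulated data with 200 planted changes. These planted changes were larger than the score changes of most members. The check thus does not show how often changes of the sizes seen would be called.

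Named regions were the 12 highest (1 per gene), the strongest of the 8 genes and the 6 windows with most members, the 3 with the smallest p in each direction, up to 4 genes of each list, up to 10 over gene starts and examples at the limits of the rule. The members, the lists and the rule were chosen with earlier results of these data known. Alternatives changed height limits, merging, start distance, scale, regions tested, the replicate block and the libraries used. Chromosomes X and Y were not used, and some regions that the rule names are not reported here.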

Additional observations from a re-analysis of the deposited data

How the results depend on the processing

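The number of KYSE510-only regions, 5135, followed the height limits: 1455 with a height of at least 10 in every KYSE510 library, 9775 with at least 3, and 1124 without any KYSE150 peak. It was 3485 to 5208 under the other limits and mergings, and 5307 to 5813 with 1 library left out. A stricter overlap for KYSE150 peaks, 50% of the region or of the peak, gives 5135 by construction, since each merged region holds its peaks whole. The share within 1 kb of a gene start, 10.7%, was 13.6% at a height of at least 10, 8.64% at 3, 12.4% without KYSE150 peaks of height 2, 14.2% without any, 12.3% without any at an FDR of 0.05, 10.3 to 10.7% with 1 library left out, 9.27% within 500 bp, 19.0% within 5 kb and, in an alternative chosen after seeing the data, 8.67% within 1 kb of either end of a protein-coding gene. Within 1 kb it stayed below the 29.4% of shared regions, which were not chosen again under the other limits. At the other distances shared regions had 27.8% within 500 bp and 37.5% within 5 kb. Within 1 kb of either gene end they had 27.9%. The members' share was lower in each case. The median score change of members was 0.0165 on log2 fold enrichment, -0.0257 on log2 height, 0.0113 over regions with a height of at least 5, and -0.0273 to 0.000904 with 1 library left out. No region was called under any alternative; the smallest adjusted p by limma was 0.166 to 0.620. A fit with a replicate block also made 0 calls, with 1955 regions higher and 1658 lower at an unadjusted p under 0.05 and a smallest adjusted p of 0.496. Libraries with the same number correlated by 0.0918, 0.0466 and 0.0337, below the 0.1 set for every pair, so they were treated as sharing only a number. Each library did correlate best with its own number, a hint from the data and not from the design. Heights near the limits of 3 and 5 rest on few fragments, and the part of the lower KYSE150 background in the set was not tested.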
